A study of Homo sapiens with 12 samples.

Results

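The 9 genes described here belong to neuroendocrine cells and secretory granules and were followed through the 12 RNA-seq libraries of the NCI-H520 series, out of 58302 gene rows in the count table. They were *NEUROD1*, *INSM1*, *CHGA*, *CHGB*, *SYP*, *PCSK1N*, *CPLX2*, *UCHL1* and *ENO2*, each found by its Ensembl identifier. They were selected on their measured counts, by the difference between 2 sets of libraries, since *PCSK1N* and *CPLX2* have counts in 1 set and almost none in the other. The difference between the sets is therefore given as a description, without a test, and tests of the 9 genes are given only inside each set.

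NCI-H520, a line from a human squamous carcinoma of the lung, was used here carrying a lentiviral construct in stable form, either *L1-FGGY*, a chimeric transcript of the L1 retrotransposon and *FGGY*, or an empty vector. The labels give 4 groups of 3 libraries each. L1_F_DMSO is the *L1-FGGY* line with solvent (0.2% DMSO), L1_F_ML355 the same line with 10 μM of the 12-LOX inhibitor ML355, L1_F_NVR the same line with 450 μM of the reverse transcriptase inhibitor NVR, and CTRL_DMSO the control with 0.2% DMSO, read here as the empty vector line of the study's methods. Medium with the agent was given 5 h after seeding, and the length of treatment was not given in the sources used here. Nothing states whether a line is a single clone or whether the 3 libraries of a group come from separate cultures, so p-values measure only the spread between these samples, which may be technical.

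The overexpressed gene was examined first, as a check of the labels. *FGGY* had 4782, 5206 and 6196 counts in L1_F_DMSO and 7346, 6290 and 5080 in L1_F_ML355. The libraries labelled NVR had 82, 103 and 88 counts, and CTRL_DMSO had 91, 87 and 78. The libraries labelled NVR thus lack the *FGGY* level of the line their label names, and they are called "the libraries labelled NVR" throughout. Over all genes, log2 CPM correlated between 0.931 and 0.942 for pairs of L1_F_DMSO and L1_F_ML355 libraries, between 0.939 and 0.972 for pairs of labelled NVR and CTRL_DMSO libraries, and between 0.706 and 0.774 across these 2 sets. The sets are called *FGGY*-high (L1_F_DMSO and L1_F_ML355) and *FGGY*-low (labelled NVR and CTRL_DMSO) below. Total counts ran from 16242082 to 18316617 in L1_F_DMSO, from 18650574 to 21011535 in L1_F_ML355, from 21792376 to 27004768 in the libraries labelled NVR and from 24434580 to 24828322 in CTRL_DMSO. Levels are given as CPM, counts scaled by TMM to a common library size. A floor of 3 counts per library, at or under which no fold change was formed, equals 0.111 to 0.185 CPM depending on the depth.

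Neuroendocrine cells of the lung store peptides and amines in dense-core granules and release them when calcium rises. Basic helix-loop-helix and zinc finger factors such as NEUROD1 and INSM1 switch the programme on, REST keeps neuronal genes off in other cells, and Notch signalling opposes the neuroendocrine fate. Inside the granule, granins pack the cargo and prohormone convertases cut it, while complexins and SNARE proteins carry out the fusion with the plasma membrane. UCHL1 and ENO2 are cytosolic enzymes that pathologists use as markers of neuroendocrine tumours.

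Promoter windows of 300 bases, from 250 before to 50 after the gene start, were found in RefSeq (GRCh38.p14) for 7 of the 9 genes. Those of 4 genes are printed on the strand of their gene, with each CpG dinucleotide in capitals. The RefSeq start is that of the GENCODE gene for *PCSK1N* and *CHGA* and lies inside the GENCODE gene for the other 5, and the windows of *UCHL1*, *ENO2* and *NEUROD1* lie inside it as a whole. *PCSK1N* and *CPLX2* are shown because their counts are at or near 0 throughout the *FGGY*-high libraries, and *CHGA* and *UCHL1* because they hold a searched motif.
PCSK1N promoter (chrX:48835561-48835860, minus strand): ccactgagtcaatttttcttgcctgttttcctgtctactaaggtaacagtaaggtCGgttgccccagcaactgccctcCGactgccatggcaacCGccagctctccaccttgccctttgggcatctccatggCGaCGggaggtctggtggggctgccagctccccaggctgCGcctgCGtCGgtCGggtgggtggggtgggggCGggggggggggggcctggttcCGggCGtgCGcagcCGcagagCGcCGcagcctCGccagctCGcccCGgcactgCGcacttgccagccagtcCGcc
CPLX2 promoter (chr5:175796283-175796582, plus strand): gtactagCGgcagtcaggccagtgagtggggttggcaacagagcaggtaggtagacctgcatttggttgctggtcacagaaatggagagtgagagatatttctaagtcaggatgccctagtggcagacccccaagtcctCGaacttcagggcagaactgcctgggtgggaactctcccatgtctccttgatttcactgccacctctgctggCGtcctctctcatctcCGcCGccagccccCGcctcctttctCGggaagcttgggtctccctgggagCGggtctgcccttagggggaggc
CHGA promoter (chr14:92922900-92923199, plus strand): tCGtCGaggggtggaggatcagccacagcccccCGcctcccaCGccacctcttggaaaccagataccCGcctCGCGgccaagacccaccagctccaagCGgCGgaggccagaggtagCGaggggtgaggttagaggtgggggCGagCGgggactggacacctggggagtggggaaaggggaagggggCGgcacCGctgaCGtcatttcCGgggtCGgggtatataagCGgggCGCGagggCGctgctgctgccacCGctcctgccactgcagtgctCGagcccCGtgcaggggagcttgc
UCHL1 promoter (chr4:41256678-41256977, plus strand): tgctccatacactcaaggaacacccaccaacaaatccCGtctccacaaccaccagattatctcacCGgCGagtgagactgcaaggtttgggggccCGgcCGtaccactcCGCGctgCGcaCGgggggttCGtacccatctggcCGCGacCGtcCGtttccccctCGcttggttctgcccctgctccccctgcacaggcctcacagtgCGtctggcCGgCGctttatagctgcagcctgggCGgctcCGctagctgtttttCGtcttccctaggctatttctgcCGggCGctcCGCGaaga

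The *CPLX2* window held 8 CpG dinucleotides and the *PCSK1N* window 21, beside a median of 14 over all 35116 windows. *CHGA* held 24, *UCHL1* 25, *NEUROD1* 31, *SYP* 35 and *ENO2* 38, so that *CPLX2* alone of the 7 lay under the median. The E-box CAGCTG, present on either strand in 17.9% of all windows, was found in none of the 7. The E-box CAGATG, present in 14.7%, was found in *UCHL1*, 115 bases upstream of the start. The core of the cyclic AMP response element, TGACG, present in 24.6%, was found in *CHGA* on both strands, at 54 and 51 bases upstream, where the matches overlap, and in *NEUROD1* at 100 bases upstream. The letters TTCAGCACC and GGACAG, taken from the binding motif of REST, were present in 0.376% and 20.5% of windows and in none of the 7.

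The label "neuroendocrine" was checked against the markers of that cell type. *GRP*, which encodes a peptide of lung neuroendocrine cells, had at most 1 count in any library. *NEUROD1*, a helix-loop-helix factor (ENSG00000162992, GRCh38 chr2:181668295-181680827, minus strand), had 2 counts in L1_F_DMSO replicate 3, 1 in L1_F_ML355 replicate 1 and 0 in the other 10 libraries. *INSM1*, a zinc finger factor (ENSG00000173404, chr20:20368104-20370949, plus strand), had 2, 1 and 1 counts in L1_F_DMSO, 0 in every L1_F_ML355 library, 0, 0 and 1 in the libraries labelled NVR, and 0, 3 and 0 in CTRL_DMSO. Neither transcription factor rose above the floor of 3 counts in any library, no fold change was formed, and both stayed out of the tests. The data thus go against a neuroendocrine label in the full sense, and what follows concerns the granule, vesicle and cytosolic genes, which were measured without these transcription factors.

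The squamous label of the line was checked in the same way. *KRT5*, *KRT6A*, *DSG3* and *PKP1*, which encode keratins and desmosomal proteins of squamous epithelium, had at most 3 counts in any library. *TP63* was at 0.709 CPM in L1_F_DMSO, 0.218 in L1_F_ML355, 2.53 in the libraries labelled NVR and 3.03 in CTRL_DMSO. *SOX2* had 0 counts in the *FGGY*-high libraries and stood at 10.9 CPM in the libraries labelled NVR and 16.02 in CTRL_DMSO. The other genes of the same list went the other way. *KRT17* was at 944 CPM in L1_F_DMSO, 4236 in L1_F_ML355, 0.099 in the libraries labelled NVR and 0.200 in CTRL_DMSO. *PERP* was at 1010, 333, 156 and 111 CPM in the same order, and *KRT14* at 0.386, 2.49, 0 and 0 CPM.

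**Figure D1:**
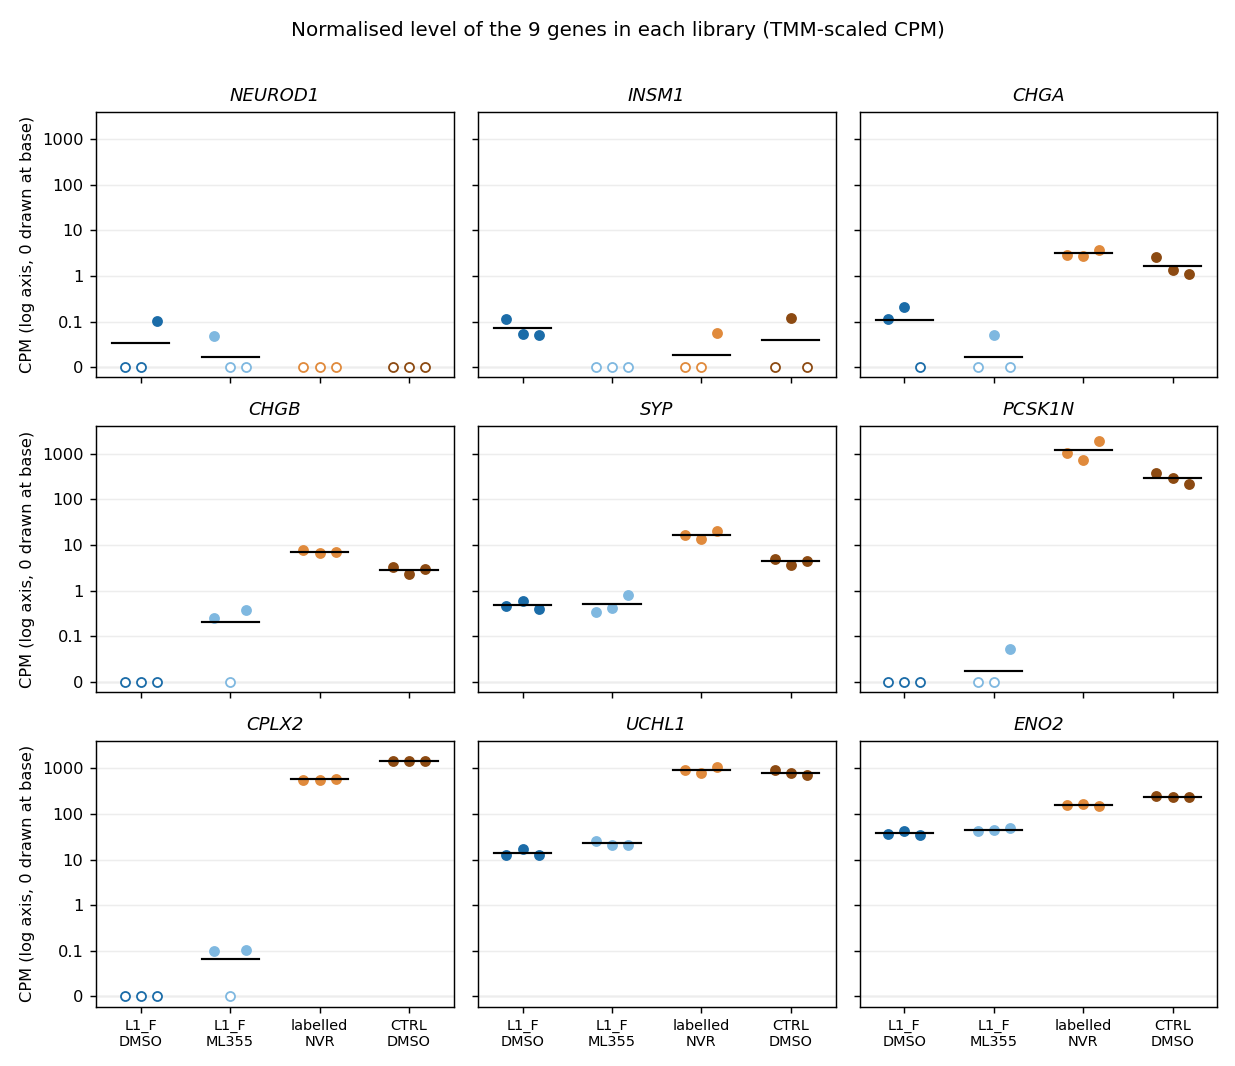
Normalised level of each of the 9 genes in each library, in TMM-scaled CPM on a log axis; points are libraries, black bars are group means, and open points at the base are libraries with 0 counts. *PCSK1N* and *CPLX2* lie at the base or at no more than 0.105 CPM in the 6 *FGGY*-high libraries and at 221 CPM or more in the 6 *FGGY*-low libraries, while *NEUROD1* and *INSM1* stay at or under 0.117 CPM everywhere.

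Of the 9 genes, 7 passed the filter on low counts over all 12 libraries. With L1_F_DMSO and L1_F_ML355 alone 2 passed, *UCHL1* and *ENO2*, so that *CHGA*, *CHGB*, *SYP*, *PCSK1N* and *CPLX2* entered the tests through the *FGGY*-low libraries, where they are high, and the number that passed carries no weight of its own. Among the members, *PCSK1N* and *CPLX2* had the widest differences between the sets. *PCSK1N* (ENSG00000102109, chrX:48831096-48835610, minus strand) encodes proSAAS, a granin-like inhibitor of the prohormone convertase PCSK1. It had 0, 0 and 0 counts in L1_F_DMSO and 0, 0 and 1 in L1_F_ML355. It had 20860, 19335 and 34679 counts in the libraries labelled NVR and 8799, 7663 and 5765 in CTRL_DMSO. The CTRL_DMSO level of 297 CPM ± 74.5 (SD, n = 3) was at least 1726-fold higher than in L1_F_DMSO, set at its floor of 3 counts per library, and the level of 1221 CPM ± 613 (SD, n = 3) in the libraries labelled NVR at least 7094-fold higher. In a bulk sample fewer cells of a type and less RNA per cell cannot be told apart, here and for every gene below.

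*CPLX2* (ENSG00000145920, chr5:175796310-175884021, plus strand) encodes complexin 2, which holds SNARE complexes ready for calcium-triggered fusion. It had no counts in L1_F_DMSO and 2, 0 and 2 in L1_F_ML355. In the libraries labelled NVR it had 11095, 15381 and 10883 counts, and in CTRL_DMSO 33980, 37548 and 38160. The level in CTRL_DMSO was 1454 CPM ± 21.3 (SD, n = 3), at least 8449-fold above the floor in L1_F_DMSO. In the libraries labelled NVR it was 574 CPM ± 21.3 (SD, n = 3), at least 3335-fold above that floor.

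The 2 chromogranins were low even where they were present. *CHGA* (ENSG00000100604, chr14:92923150-92935285, plus strand) encodes chromogranin A, the granule matrix protein measured in blood as a tumour marker. It had 2, 4 and 0 counts in L1_F_DMSO, 0, 1 and 0 in L1_F_ML355, 58, 76 and 69 in the libraries labelled NVR and 63, 34 and 29 in CTRL_DMSO. Its mean level was 1.70 CPM ± 0.832 in CTRL_DMSO and 3.17 ± 0.537 in the libraries labelled NVR (SD, n = 3), and no fold is given against the 6 counts of L1_F_DMSO. *CHGB* (ENSG00000089199, chr20:5911510-5925353, plus strand) encodes chromogranin B of the same matrix. It had 0, 0 and 0 counts in L1_F_DMSO, 5, 0 and 7 in L1_F_ML355, 152, 182 and 127 in the libraries labelled NVR and 80, 60 and 78 in CTRL_DMSO. Against the floor in L1_F_DMSO, *CHGB* was at least 16.9-fold higher in CTRL_DMSO and at least 41.3-fold higher in the libraries labelled NVR.

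*SYP* (ENSG00000102003, chrX:49187815-49200218, minus strand) encodes synaptophysin, a membrane protein of small vesicles. It had 8, 11 and 8 counts in L1_F_DMSO, 7, 8 and 15 in L1_F_ML355, 330, 366 and 362 in the libraries labelled NVR and 116, 95 and 119 in CTRL_DMSO. The *FGGY*-high groups overlapped each other and lay under both other groups in every library. The mean CPM in CTRL_DMSO was 9.14-fold, and in the libraries labelled NVR 34.7-fold, that in L1_F_DMSO.

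The cytosolic enzymes were the members with counts well above the floor in all 12 libraries. *UCHL1* (ENSG00000154277, chr4:41256413-41268455, plus strand) encodes an abundant neuronal ubiquitin hydrolase. It had 221, 322 and 246 counts in L1_F_DMSO, 529, 411 and 390 in L1_F_ML355, 18813, 21522 and 19437 in the libraries labelled NVR and 22104, 20111 and 18693 in CTRL_DMSO. Its mean CPM in CTRL_DMSO was 57.9-fold, and in the libraries labelled NVR 66.8-fold, that in L1_F_DMSO. *ENO2* (ENSG00000111674, chr12:6913745-6923698, plus strand) encodes the gamma enolase of glycolysis in neurons. It had 631, 815 and 700 counts in L1_F_DMSO, 865, 849 and 953 in L1_F_ML355, 3193, 4523 and 2786 in the libraries labelled NVR and 5816, 5989 and 6027 in CTRL_DMSO. Its difference was the smallest of the 7, with a mean CPM in CTRL_DMSO 6.21-fold and in the libraries labelled NVR 4.20-fold that in L1_F_DMSO.

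Markers of other cell types moved with the same split. The summed level of 9 squamous markers ran from 1895 to 1992 CPM in L1_F_DMSO, from 3439.6 to 5147 in L1_F_ML355, from 159.8 to 180.0 in the libraries labelled NVR and from 129.6 to 131 in CTRL_DMSO, and nearly all of it in the *FGGY*-high libraries was *KRT17* and *PERP*. The summed level of 4 epithelial markers, *EPCAM*, *CDH1*, *KRT8* and *KRT18*, went the other way. It ran from 861 to 886 CPM in L1_F_DMSO and from 436 to 560.5 in L1_F_ML355. In the libraries labelled NVR it ran from 1906 to 3170.2, and in CTRL_DMSO from 3826 to 5292. Nearly all of this sum was *KRT8* and *KRT18*. *EPCAM* went against the sum, at 8.87 CPM in L1_F_DMSO and 9.17 in L1_F_ML355. Its level was 0.859 CPM in the libraries labelled NVR and 1.57 in CTRL_DMSO. Of 5 fibroblast markers, 4 were over the floor in every L1_F_DMSO library and 1 in every CTRL_DMSO library, with a summed level of 341 to 359 CPM against 20.2 to 25.5. Among the lung neuroendocrine markers, which include *CHGA* and *SYP*, *INSM1* and *GRP* were at or under the floor in all groups. The part of these markers in the differences above was not tested.

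Genes can be ordered by their level only per length, for which CPM was divided by the bases of the union of exons in GENCODE 44. In CTRL_DMSO the order in CPM per kb was *UCHL1* at 368 ± 49.2, *PCSK1N* at 222 ± 55.7, *CPLX2* at 207 ± 3.03, *ENO2* at 55.3 ± 1.65, *CHGB* at 0.652 ± 0.116, *SYP* at 0.629 ± 0.0864 and *CHGA* at 0.561 ± 0.275 (SD, n = 3). *PCSK1N* and *CPLX2* overlapped in this group, and so did *CHGB*, *SYP* and *CHGA* among themselves. Among the 17849 genes tested, *UCHL1* ranked 82 by this level in CTRL_DMSO, *PCSK1N* 158, *CPLX2* 168 and *ENO2* 749, whereas *CHGB*, *SYP* and *CHGA* lay under more than 72% of genes.

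The order differed in the libraries labelled NVR. There *PCSK1N* came first at 912 CPM per kb ± 458 (SD, n = 3), rank 47 among the genes tested, above *UCHL1* at 424 ± 61.1 and *CPLX2* at 81.8 ± 3.04. *SYP* at 2.39 ± 0.452, *CHGB* at 1.60 ± 0.101 and *CHGA* at 1.05 ± 0.178 CPM per kb did not overlap in this group. In L1_F_DMSO *ENO2* at 8.90 ± 0.967 lay above *UCHL1* at 6.34 ± 1.15 CPM per kb, and in L1_F_ML355 *ENO2* at 10.6 ± 0.940 and *UCHL1* at 10.2 ± 1.38 overlapped. Only these 2 members and *SYP* were over the floor in every *FGGY*-high library.

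**Figure D2:**
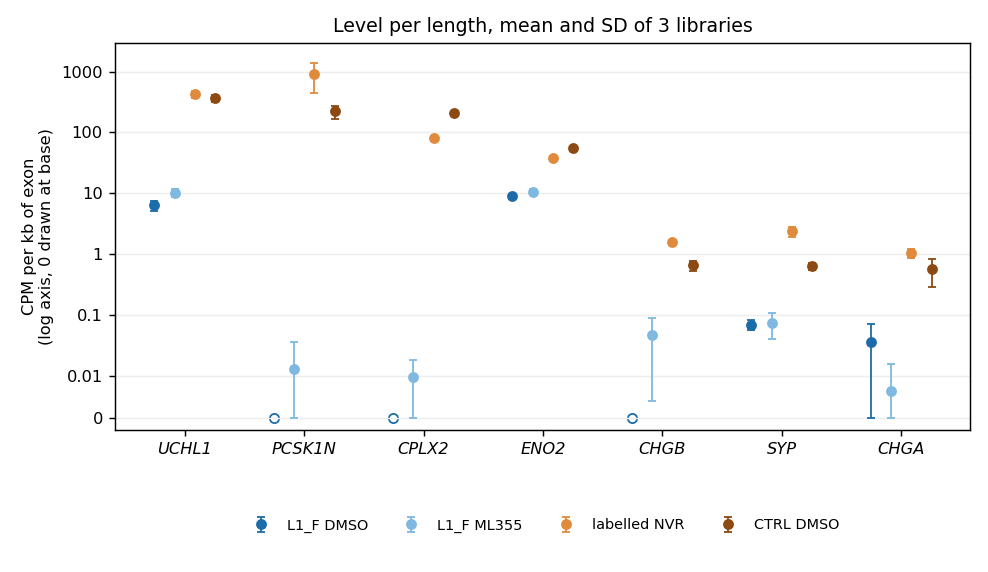
Level per length (CPM per kb of exon, log axis) of the 7 genes that passed the filter, as the mean and SD of the 3 libraries of each group; open points at the base are groups with 0 counts, and an error bar that would reach below the axis is cut at the base. In the *FGGY*-low groups *UCHL1*, *PCSK1N*, *CPLX2* and *ENO2* lie between 37.4 and 912 CPM per kb, and *CHGB*, *SYP* and *CHGA* between 0.561 and 2.39.

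The response to ML355 was tested inside the *FGGY*-high libraries, which asks whether the 12-LOX inhibitor changes these genes in the *L1-FGGY* line. With edgeR's quasi-likelihood test and a Benjamini-Hochberg adjusted p under 0.01 over all genes, 21.3% of the 17849 genes tested were higher after ML355 and 23.5% were lower. Of the 7 members in this fit, 2 were higher, 0 were lower and 5 did not pass, but only *UCHL1* and *ENO2* have the counts to be tested in these 2 groups by themselves. In a fit of the 2 groups alone 1 of these 2, *UCHL1*, was called.

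*UCHL1* was higher after ML355. Its level was 12.7, 16.9 and 12.4 CPM in L1_F_DMSO and 26.1, 21.2 and 20.5 CPM in L1_F_ML355, and the groups did not overlap. The log2 fold change was 0.69 (SE 0.16, edgeR adjusted p = 0.00193), higher in 3 of 3 libraries. Without L1_F_DMSO replicate 1, L1_F_DMSO replicate 3 or L1_F_ML355 replicate 1 the log2 fold change was 0.61, 0.60 and 0.57, with edgeR adjusted p of 0.0149, 0.0158 and 0.0144. Even after ML355 the mean *UCHL1* level was 22.6 CPM ± 3.04 (SD, n = 3), beside 811 CPM ± 108.5 (SD, n = 3) in CTRL_DMSO.

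*CHGB* was the other call, on 12 counts in all, and it is given as a description, since it was in the test only through its counts in the *FGGY*-low libraries and was not tested with the 2 groups alone. It had no count in L1_F_DMSO, and of the 3 libraries with ML355, replicate 2 had none either, so that the groups overlapped. Its mean of 0.205 CPM after ML355 was at least 1.19-fold higher than the floor in L1_F_DMSO. The edgeR adjusted p was 0.00939, and it ran from 0.000631 to 0.0394 over the alternatives, past the threshold in some and not in others.

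*ENO2* and *SYP* did not pass in this comparison. *ENO2* was at 36.2, 42.9 and 35.3 CPM in L1_F_DMSO and 42.6, 43.7 and 50.1 CPM after ML355, and the groups overlapped by a narrow margin. Its log2 fold change was 0.25 (95% interval 0.025 to 0.48, edgeR adjusted p = 0.0552). *SYP* was at 0.459, 0.578 and 0.403 CPM in L1_F_DMSO and at 0.345, 0.412 and 0.788 CPM after ML355, with a log2 fold change of 0.09 (95% interval -0.75 to 0.94, edgeR adjusted p = 0.876). *CHGA* had 1 count after ML355 against 6 in L1_F_DMSO, and no fold change is given. *PCSK1N* and *CPLX2* were at or under the floor in both groups, so no fold change is given for them.

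The libraries labelled NVR were compared with CTRL_DMSO, the group whose *FGGY* level they share, and not with L1_F_DMSO. In this comparison 14.5% of all genes tested were higher in the libraries labelled NVR and 15.3% were lower. Of the 7 members tested, 3 were higher, 2 were lower and 2 did not pass, which makes 5 of 7 called. Of these 5, *CHGB*, *SYP*, *PCSK1N* and *CPLX2* entered the tests through these *FGGY*-low libraries, where they are high. The number called therefore carries no weight of its own.

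*PCSK1N* and *SYP* were higher in the libraries labelled NVR, with groups that did not overlap. *PCSK1N* was at 1044, 716 and 1903 CPM in the libraries labelled NVR and at 370.1, 299.6 and 221 CPM in CTRL_DMSO. Its log2 fold change was 2.04 (SE 0.29, edgeR adjusted p = 7.6e-05), and without the highest library, labelled NVR replicate 3, it was 1.58. Without any filter on low counts its adjusted p was 0.0135. *SYP* was at 16.5, 13.6 and 19.9 CPM in the libraries labelled NVR and at 4.88, 3.71 and 4.57 CPM in CTRL_DMSO, a log2 fold change of 1.92 (SE 0.21, edgeR adjusted p = 3.59e-06).

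*CHGB* was also higher, and *CHGA* did not pass. *CHGB* was at 7.61, 6.74 and 6.97 CPM in the libraries labelled NVR and at 3.37, 2.35 and 2.99 CPM in CTRL_DMSO. The log2 fold change was 1.29 (SE 0.31, edgeR adjusted p = 0.00414), and it lost the call without labelled NVR replicate 1, CTRL_DMSO replicate 2 or CTRL_DMSO replicate 3 (adjusted p of 0.0226, 0.0290 and 0.0164). *CHGA* was at 2.90, 2.81 and 3.79 CPM against 2.65, 1.33 and 1.11 CPM. The groups did not overlap, but the gap was small beside the spread of CTRL_DMSO, and the log2 fold change was 0.90 (95% interval 0.074 to 1.72, edgeR adjusted p = 0.0720).

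*CPLX2* and *ENO2* were lower in the libraries labelled NVR. *CPLX2* was at 555, 569.5 and 597 CPM against 1429, 1468 and 1464 CPM in CTRL_DMSO, a log2 fold change of -1.34 (SE 0.13, edgeR adjusted p = 2.58e-06). *ENO2* was at 159.8, 167 and 153 CPM against 245, 234 and 231 CPM, a log2 fold change of -0.56 (SE 0.11, edgeR adjusted p = 0.000503). *UCHL1* was at 941, 797 and 1066 CPM against 929.8, 786 and 717 CPM, with overlapping groups and a log2 fold change of 0.20 (95% interval -0.12 to 0.53, edgeR adjusted p = 0.289). *PCSK1N* and *CPLX2*, both at 0 counts in L1_F_DMSO, thus changed in opposite directions inside the *FGGY*-low set.

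**Figure D3:**
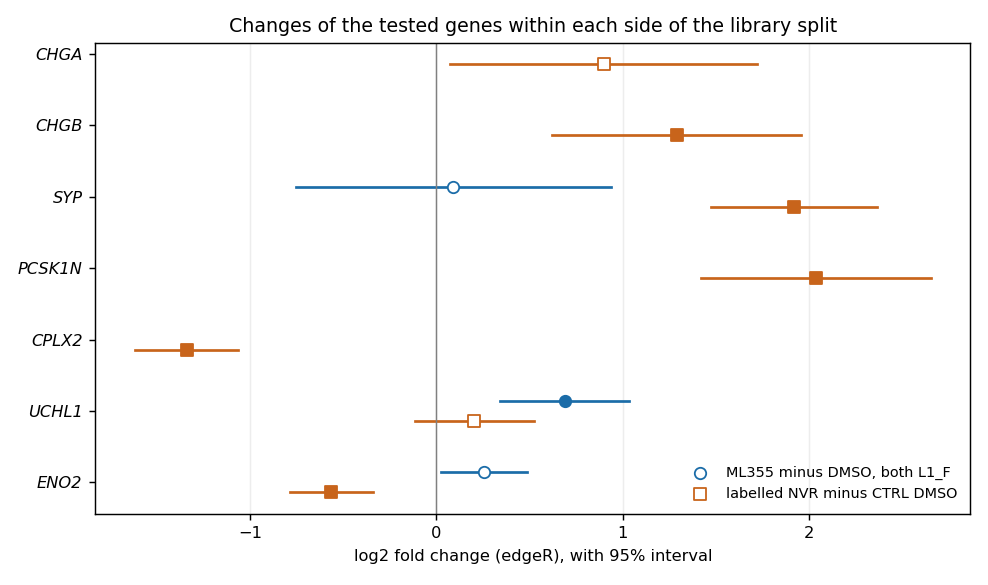
Log2 fold change from the edgeR fit with its 95% interval for ML355 minus DMSO in the *L1-FGGY* line (circles) and for the libraries labelled NVR minus CTRL_DMSO (squares); filled symbols passed an adjusted p under 0.01. *CHGA*, *CHGB*, *PCSK1N* and *CPLX2* have no circle because a *FGGY*-high group is at or near 0 counts; *UCHL1* is the filled circle at 0.69, and *PCSK1N* and *CPLX2* are the squares farthest to each side at 2.04 and -1.34.

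The difference between the change in the libraries labelled NVR and the change after ML355 was tested in the same fit, although agent, dose and line differ between them. Over all genes, 34.1% passed in either direction. Of the 7 members, 3 passed. Of these, *SYP* and *CPLX2* entered the test through the *FGGY*-low libraries, where they are high, so the number carries no weight of its own. For *SYP* the difference was 1.83 on the log2 scale (SE 0.46, edgeR adjusted p = 0.00388), and for *ENO2* it was -0.82 (SE 0.15, edgeR adjusted p = 0.000351), with *ENO2* called lower in the first change and not called in the second. The ML355 arm of *SYP* rests on 30 counts against 27 and was not tested with those 2 groups alone, and its difference lost the call with limma voom (adjusted p = 0.0114) and, in edgeR, without L1_F_DMSO replicate 2, L1_F_ML355 replicate 1 or L1_F_ML355 replicate 2 (adjusted p = 0.0202, 0.0126 and 0.0112). The third call was *CPLX2* (edgeR adjusted p = 0.00616), which rests on an ML355 arm of 4 counts against 0 and is given no size. For *UCHL1* the difference of -0.48 (95% interval -0.96 to -0.012) did not pass (edgeR adjusted p = 0.0863), so the rise with ML355 and the lack of a call in the libraries labelled NVR were not shown to differ. Without L1_F_DMSO replicate 2 or L1_F_ML355 replicate 1, 1 of the 3 calls was left, that of *ENO2*.

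The pathway around the 9 genes was described with 129 other genes in 13 lists, of which 92 were tested. After ML355, 16 were higher and 28 lower, 17.4% and 30.4% beside the 21.3% and 23.5% of all genes. In the libraries labelled NVR against CTRL_DMSO, 14 were higher and 11 lower, 15.2% and 12.0% beside 14.5% and 15.3%. For L1_F_DMSO against CTRL_DMSO, 38 were higher and 37 lower, 41.3% and 40.2%, where over all genes 32.5% were higher and 36.2% lower. The median log2 fold change of the 92 genes was -0.17, 0.00 and -0.19 in these 3 comparisons, beside 0.00, 0.00 and -0.11 over all genes tested. The pathway genes thus moved in both directions in every comparison.

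**Figure D4:**
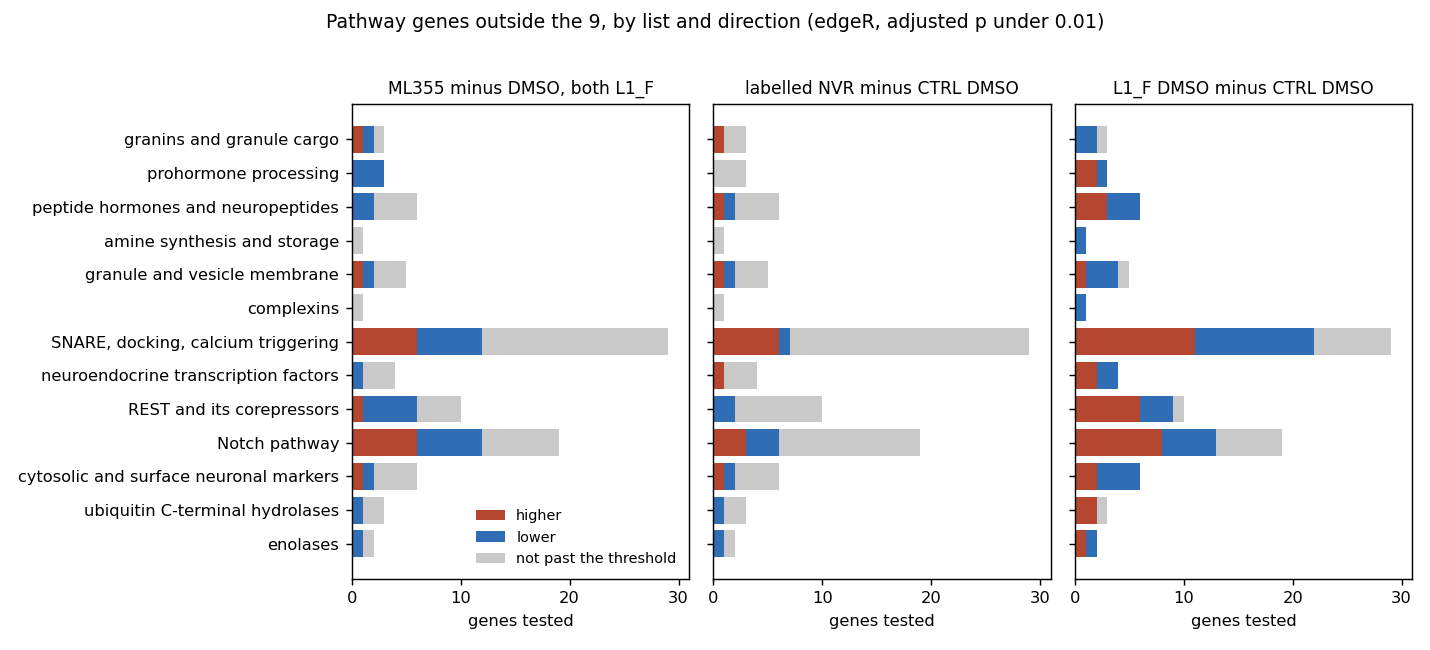
Number of pathway genes outside the 9 that were higher (red), lower (blue) or not past the threshold (grey) in each of the 13 lists, for the 3 comparisons, from edgeR at an adjusted p under 0.01. Both colours appear together in most lists, as in SNARE, docking and calcium triggering, with 11 higher and 11 lower of 29 tested for L1_F_DMSO against CTRL_DMSO.

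Among the transcription factors, 4 of 15 were tested, and 2 were higher and 2 lower in L1_F_DMSO than in CTRL_DMSO. Over all genes, 32.5% were higher and 36.2% lower. *FOXA2* and *HES6* were lower, as were the levels of the 7 measured members. *FOXA2*, a forkhead factor of foregut epithelium, had 0 counts in L1_F_DMSO and stood at 77.6 CPM ± 4.69 (SD, n = 3) in CTRL_DMSO. *HES6*, an inhibitor of HES1 and a marker of neuroendocrine tumours, was at 2.80 CPM in L1_F_DMSO and 29.8 in CTRL_DMSO (log2 fold change -3.41, edgeR adjusted p = 6.71e-09). The libraries labelled NVR stood higher still, at 61.2 CPM, than CTRL_DMSO (log2 fold change 1.04, edgeR adjusted p = 0.0013). *ISL1*, a LIM homeodomain factor of endocrine cells, went the other way, with 8.08 CPM in L1_F_DMSO and 0 counts in CTRL_DMSO. So did *MYT1L*, a zinc finger factor of neurons named after its values were seen, with 2.48 CPM in L1_F_DMSO and 0 counts in CTRL_DMSO.

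*REST*, the repressor of neuronal genes, was higher in the libraries where the 7 measured members were lower. It was at 46.5 CPM ± 6.46 in L1_F_DMSO, 42.3 ± 6.14 in L1_F_ML355, 14.9 ± 1.19 in the libraries labelled NVR and 18.1 ± 3.46 in CTRL_DMSO (SD, n = 3). The log2 fold change of L1_F_DMSO against CTRL_DMSO was 1.36 (SE 0.15, edgeR adjusted p = 6.68e-07), and neither ML355 (-0.14, adjusted p = 0.461) nor the libraries labelled NVR (-0.28, adjusted p = 0.162) passed. Of *REST* and its 9 corepressor genes listed here, 6 were higher and 3 lower in L1_F_DMSO than in CTRL_DMSO, 60% and 30% beside 32.5% and 36.2% of all genes. *KDM1A*, a histone demethylase of that complex, was higher (log2 fold change 1.30, edgeR adjusted p = 3.29e-09), and *RCOR2*, a corepressor of the same complex, was lower (-3.44, adjusted p = 6.01e-10). *YAP1*, a transcriptional coactivator that is low in many neuroendocrine tumours, was at 152 CPM in L1_F_DMSO, 166 in L1_F_ML355, 48.0 in the libraries labelled NVR and 62.5 in CTRL_DMSO. *POU2F3*, the tuft cell factor, was at 2.03, 0.243, 0.0183 and 0.0140 CPM in the same order.

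Of 19 Notch pathway genes, 8 were higher and 5 lower in L1_F_DMSO than in CTRL_DMSO, 42.1% and 26.3% beside 32.5% and 36.2% of all genes. *HES5*, a Notch target that represses helix-loop-helix factors, stood at 7.88 CPM in L1_F_DMSO and had 1 count in all of CTRL_DMSO. *HES1*, its close relative, was among the 5 lower, at 22.9 CPM in L1_F_DMSO and 70.5 in CTRL_DMSO (log2 fold change -1.62, edgeR adjusted p = 6.35e-07). *JAG1* and *DLL4* were lower there too (-1.95 and -1.62, adjusted p = 2.63e-07 and 0.00204). *HES1* was higher after ML355 (log2 fold change 2.98, edgeR adjusted p = 4.36e-09) and likewise in the libraries labelled NVR against CTRL_DMSO (1.07, adjusted p = 0.00019). The ligand gene *DLL4* was higher after ML355 (3.07, adjusted p = 6.44e-06), and the coactivator gene *MAML3* was lower (-2.69, adjusted p = 8.97e-09). *JAG1*, another ligand, was lower in the libraries labelled NVR (-1.04, adjusted p = 0.000604).

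Of 3 other granule cargo genes tested, *VGF* and *SCG2* were lower in L1_F_DMSO than in CTRL_DMSO and *SCG5* did not pass. In that comparison 36.2% of all genes were lower. *VGF*, a granin cut into peptides, was at 1.24 CPM in L1_F_DMSO, 5.81 after ML355, 42.0 in the libraries labelled NVR and 13.6 in CTRL_DMSO. It was higher after ML355 (log2 fold change 2.22, SE 0.32, edgeR adjusted p = 1.98e-05) and in the libraries labelled NVR (1.62, SE 0.23, adjusted p = 4.79e-05), and lower in L1_F_DMSO than in CTRL_DMSO (-3.45, SE 0.30, adjusted p = 2.63e-08). *SCG2*, secretogranin II, was at 0.119 CPM in L1_F_DMSO and 3.42 in CTRL_DMSO (-4.72, adjusted p = 6.75e-07). *SCG5*, the 7B2 chaperone of a prohormone convertase, was at 1.58 CPM in L1_F_DMSO and 1.31 in CTRL_DMSO (0.27, adjusted p = 0.459) and was lower after ML355 (-2.07, adjusted p = 0.000311). It was named after its values were seen.

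Of the enzymes that process prohormones, *PCSK1* and *PAM* were higher and *CPE* lower in L1_F_DMSO than in CTRL_DMSO. *PCSK1*, the convertase that proSAAS inhibits, was at 11.1 CPM in L1_F_DMSO and 0.458 in CTRL_DMSO, a log2 fold change of 4.60 (SE 0.27, edgeR adjusted p = 1.95e-10), the reverse of *PCSK1N*. *PAM*, which amidates peptides, was at 304.7 CPM in L1_F_DMSO and 34.1 in CTRL_DMSO (3.16, adjusted p = 1.58e-11). *CPE*, which trims basic residues, was lower in L1_F_DMSO (-0.85, adjusted p = 0.000489). All 3 were lower after ML355, as were 23.5% of all genes tested. *PAM* was lower by a log2 fold change of -1.96, *PCSK1* by -1.19 and *CPE* by -0.96 (edgeR adjusted p = 1.53e-08, 0.000153 and 0.000598).

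Of 13 hormone and neuropeptide genes, 6 were tested. *CGA*, the common alpha subunit of glycoprotein hormones, had 0 counts in CTRL_DMSO and in the libraries labelled NVR but stood at 3172 CPM ± 298 in L1_F_DMSO and 357 ± 69.6 in L1_F_ML355 (SD, n = 3), lower after ML355 by a log2 fold change of -3.15 (edgeR adjusted p = 1.93e-08). *GAL*, galanin, was higher in L1_F_DMSO than in CTRL_DMSO (2.79, adjusted p = 1.16e-08) and lower in the libraries labelled NVR (-1.16, adjusted p = 0.00252). *NTS*, neurotensin, was at 0.109 CPM in L1_F_DMSO and 3.06 in CTRL_DMSO (-4.77, adjusted p = 5.27e-08). This fold change rests on at most 3 counts in any L1_F_DMSO library. Of 5 genes of amine synthesis and storage, 1 was tested.

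Of the 33 genes of SNARE assembly, docking and calcium triggering, 29 were tested. *RAB3A*, a vesicle GTPase, was higher after ML355 (log2 fold change 3.31, edgeR adjusted p = 1.41e-07) and in the libraries labelled NVR (1.03, adjusted p = 0.00219). *VAMP2*, the vesicle SNARE, was higher after ML355 (2.23, adjusted p = 5.14e-09), and *SYT1*, a calcium sensor, was higher in the libraries labelled NVR (0.98, adjusted p = 0.00102). *RIMS1*, an active zone scaffold, stood at 9.61 CPM in L1_F_DMSO, was lower after ML355 (-2.25, adjusted p = 6.5e-06) and had 0 counts in CTRL_DMSO. *CADPS2* and *UNC13D*, priming factors, were higher in L1_F_DMSO than in CTRL_DMSO by 4.70 and 4.57 (adjusted p = 1.95e-09 and 1.6e-13). *RIMS1*, *CADPS2* and *UNC13D* were thus higher in the libraries where *CPLX2* was at 0.

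Paralogs of the members were measured in every group and went in both directions. *CPLX1*, the nearest relative of *CPLX2*, was at 0.733 CPM in L1_F_DMSO and 1.79 in CTRL_DMSO (log2 fold change -1.26, edgeR adjusted p = 0.00355). *SYPL1*, related to *SYP*, was higher in L1_F_DMSO than in CTRL_DMSO (0.49, adjusted p = 0.000672) and after ML355 (0.39, adjusted p = 0.00541). *ENO1*, the ubiquitous enolase, was at 2591 CPM in L1_F_DMSO and 3837 in CTRL_DMSO (-0.57, adjusted p = 0.00198). *ENO3*, the muscle enolase, was higher in L1_F_DMSO (1.75, adjusted p = 4.82e-09). *UCHL5*, a proteasome-bound relative of *UCHL1*, was higher in L1_F_DMSO (1.37, adjusted p = 7.88e-08) and lower after ML355 (-0.61, adjusted p = 0.000762) and in the libraries labelled NVR (-0.99, adjusted p = 2.59e-05). *UCHL3* was higher in L1_F_DMSO (2.85, adjusted p = 2.18e-05), on at most 34 counts per library.

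Other cytosolic and surface markers of neurons went in both directions. *NEFL*, the light neurofilament, was at 0.124 CPM in L1_F_DMSO and 9.48 in CTRL_DMSO (log2 fold change -6.19, edgeR adjusted p = 3.4e-11). The fold change of *NEFL* rests on at most 3 counts in any L1_F_DMSO library. *NEFH*, the heavy neurofilament, was higher in L1_F_DMSO (4.09, adjusted p = 1.59e-08). *TUBB3*, neuronal tubulin, was lower in L1_F_DMSO (-3.79, adjusted p = 5.71e-08) and higher after ML355 (2.38, adjusted p = 7.59e-05). *MAP2*, a microtubule protein of neurites, was higher in the libraries labelled NVR (1.27, adjusted p = 0.000401). *L1CAM*, an adhesion molecule, was lower after ML355 (-0.92, adjusted p = 3.56e-06) and in the libraries labelled NVR (-0.89, adjusted p = 1.84e-05).

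The nearest tested protein-coding genes on each side are given for *PCSK1N*, *CPLX2*, *UCHL1* and *ENO2*, as log2 fold changes of L1_F_DMSO against CTRL_DMSO. Of all genes tested, 32.5% were higher and 36.2% lower in that comparison. Whether a difference reached along the chromosome was not tested. Beside *PCSK1N*, *HDAC6* at 6114 bases differed by -0.29 and *PQBP1* by -0.61, both expressed in all groups. Beside *CPLX2*, *THOC3* at 33852 bases differed by -0.60, whereas *HRH2* at 85554 bases had 0 counts in L1_F_DMSO and stood at 1.37 CPM in CTRL_DMSO. Beside *UCHL1*, *APBB2* differed by 0.62 and *LIMCH1* by 0.79, against the direction of *UCHL1*. Beside *ENO2*, *ATN1* at 765 bases differed by -1.73 and *SPSB2* at 24387 bases by -4.07, in its direction. In this comparison the neighbours of *ENO2* thus went in its direction and those of *UCHL1* did not. Inside the *FGGY*-low set *SPSB2* was at 131 CPM in the libraries labelled NVR and 68.9 in CTRL_DMSO, against the direction of *ENO2*. *ATN1* was at 198 and 231 CPM there, in its direction. After ML355, where *ENO2* was not called, *ATN1* was at 150.7 CPM beside 69.4 in L1_F_DMSO, and *SPSB2* at 8.21 beside 4.12.

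Some of the members share bases with other genes, and how the counting treated shared or unstranded reads was not given in the sources used here. *ENO2* overlaps *LRRC23* on the same strand, which had 19 to 33 counts in L1_F_DMSO, 344 to 394 in CTRL_DMSO and 517 to 587 in the libraries labelled NVR, so reads of the overlap are uncertain. *NEUROD1* lies across *CERKL*, which had at most 35 counts. The antisense genes *SYP-AS1* and *UCHL1-DT* had at most 2 and 5 counts.

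The genes with the most similar pattern were sought by Pearson correlation of log2 CPM over the 12 libraries among 14347 genes with a symbol and a mean of at least 1 CPM. They were *IL4I1* and *TRIM74* for *CHGA*, *UBB* and *PRPSAP2* for *CHGB*, *REEP6* and *MTMR14* for *SYP*, *CLDN3* and *CLEC11A* for *PCSK1N*, *GATA3* and *GALNT14* for *CPLX2*, *GATD1* and *CNTNAP3B* for *UCHL1*, and *IRAK1* and *PALD1* for *ENO2*. The coefficients lay between 0.989 and 0.999, and the 12 points share the split between the sets. Inside the 6 *FGGY*-low libraries *CLEC11A* and *PCSK1N* had r = 0.997, while *CNTNAP3B* and *UCHL1* had r = -0.380. These 6 were among the 12 libraries used to choose the genes. They also hold 2 groups between which *CLEC11A* differed in the direction of *PCSK1N*, at 46.5 CPM in the libraries labelled NVR and 15.7 in CTRL_DMSO.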

How the data were processed

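Total RNA of 12 NCI-H520 libraries was sequenced by the authors, who aligned reads to hg38 with STAR 2.5.3a and counted them per gene with HTSeq 0.11.2, per the submitters' processing notes. The deposited values are whole-number counts per Ensembl gene, not normalized. The annotation release, strand setting and treatment of reads with several positions were not given in the sources used here, and the labels name a TruSeq kit where the study's methods name NEB. Groups follow the labels. In the count table the control columns are headed only DMSO and the NVR columns only NVR.

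Of 58302 identifiers, 57532 were matched to GENCODE 44. Of 36072 genes with a count, edgeR's filterByExpr kept 17849. Library sizes were scaled by TMM, and the 4 group means were fitted in 1 quasi-likelihood model (edgeR 4.0.16, R 4.3.3), with Benjamini-Hochberg adjustment and a threshold of 0.01, where the study used limma voom. The 95% intervals are from the t distribution of that fit. The pipeline was tested on simulated data. Fold changes of a group at 0 were set against a floor of 3 counts per library, and intervals from counts cover counting error only. Log2 CPM for correlations used a prior count of 2.

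The 9 genes, the gene lists and the tests were chosen with earlier results of these data known. Named besides the 9 were *FGGY*, paralogs, *REST*, *POU2F3* and *YAP1*, nearest neighbours, the 2 best correlated genes per member, and up to 3 called genes per list and comparison with the largest fold change, non-overlapping groups and an average level of 1 CPM or more. The alternatives tried were limma 3.58.1 (voom), DESeq2 1.42.0, other scalings, filters and thresholds, the 2 groups alone, a replicate block and each library left out. Tables and figures used pandas 2.3.3, numpy 2.4.6 and matplotlib 3.10.9 under Python 3.11.15. Promoters came from RefSeq, and protein sequences were not used here.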

Additional observations from a re-analysis of the deposited data

Results flagged for a closer look

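For 3 of the 7 members tested, the change in the libraries labelled NVR differed from the change after ML355 by a test of the difference itself (edgeR, adjusted p under 0.01), beside 34.1% of all genes. Of these, *SYP* and *CPLX2* entered the test through the *FGGY*-low libraries, where they are high, so the number carries no weight of its own. A size is given for *SYP* and *ENO2* and not for *CPLX2*, which rests on 4 counts against 0 in its ML355 arm. For *SYP* the difference was 1.83 on the log2 scale (adjusted p = 0.00388), with 30 counts in all after ML355 and 27 in L1_F_DMSO. The call was lost with limma voom (adjusted p = 0.0114) and, in edgeR, without L1_F_DMSO replicate 2, L1_F_ML355 replicate 1 or L1_F_ML355 replicate 2 (adjusted p = 0.0202, 0.0126 and 0.0112). For *ENO2* it was -0.82 (adjusted p = 0.000351), on at least 631 counts in every library. The 2 changes differ in agent, dose and *FGGY* level, which cannot be told apart here.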

How the results depend on the processing

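The count of members called after ML355 was 2 and fell to 1 with a minimum absolute log2 change of 1, with limma voom, with the library size alone, with a mean of at least 1 CPM, with the replicate block and with only the 2 groups compared, where 2 members were tested. At an adjusted p under 0.05 it rose to 3. With a library left out it ran from 0 to 2. The log2 fold change of *SYP* after ML355 reversed to -0.039 with the library size alone, to -0.034 without L1_F_DMSO replicate 3 and to -0.34 without L1_F_ML355 replicate 3, and ran from -0.34 to 0.32 with a library left out. The members called in the libraries labelled NVR numbered 4 or 5 in every alternative, and those called for the difference of the changes ran from 1 to 3 with a library left out. The 44 pathway genes called after ML355 became 56 at an adjusted p under 0.05, 28 with a minimum absolute log2 change of 1, and 38 to 42 with a library left out. The 25 called in the libraries labelled NVR became 45 at an adjusted p under 0.05, 12 with a minimum absolute log2 change of 1, and 16 to 27 with a library left out, the lowest without labelled NVR replicate 1 or CTRL_DMSO replicate 2. The 75 called for L1_F_DMSO against CTRL_DMSO stayed between 57 and 84. Of 196 recomputed values over 13 member changes, 182 kept direction and call, 11 lost the call and 3 reversed. Where a call was lost, the cause was not tested. Deviations of libraries with the same number from their group means correlated from -0.354 to 0.170. With 3 libraries per group this cannot settle whether the numbers pair the libraries. The library size alone moved the median of all genes by -0.127 in the ML355 comparison and by -0.153 in that of the libraries labelled NVR. At this depth *NEUROD1* and *INSM1* were not detectable above 3 counts.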
